A study of Mus musculus with 8 samples.

Results

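The 34 genes described here encode proteins of cell adhesion: 21 integrin chains, 7 tetraspanins, the hyaluronan receptor Cd44, the selectin ligand Selplg and 4 receptors of the immunoglobulin family. A region of the authors' table was taken as belonging to a gene if that gene's extent was the nearest to the region's centre and lay within 100 kb. By this rule 400 of 160978 regions belonged to 33 of the 34 genes, and Icam1 had none. On chromosome 2 lay 119 of these regions, near 7 genes, and 281 regions lay near 26 genes on other chromosomes. No gene for a selectin itself is among the members, which hold Selplg, the ligand.

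The assay was ATAC-seq, which reads open chromatin by where a transposase can insert, on mouse bone marrow cells sorted as cKit+ Lymph- Ery- HSPC (hematopoietic stem and progenitor cells). Of 8 libraries, 4 were labelled acute myeloid leukemia (AML), 2 of them from URE-delta/+;Tet2+/- mice and 2 from URE-delta/+;Tet2-/- mice. The other 4 were labelled normal, 1 each from URE-delta/+;Tet2+/+, URE+/+;Tet2+/-, URE+/+;Tet2-/- and URE+/+;Tet2+/+ mice, described as age-matched, with no age given. Whether a library came from 1 mouse or a pool is not stated. URE is the upstream regulatory element of Spi1, the gene of the transcription factor PU.1, and Tet2 encodes an enzyme that oxidises methylated cytosine. Each AML library carried a heterozygous URE deletion together with loss of 1 or both Tet2 alleles. No normal library carried both changes, so genotype and leukemia cannot be told apart across these libraries. The title of the deposited table names low PU.1, and the values are those of the deposited leukemic over non-leukemic comparison, 1 log2 fold change and 1 adjusted p per region. The libraries behind each side and their depth are not stated in these sources, so no error or replicate spread can be set beside any value. By the lane in the library titles, lanes 6 and 7 held AML and normal libraries and lane 8 held 2 normal libraries only. In bulk chromatin, fewer cells with an open region and less opening per cell cannot be told apart.

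Integrins are receptors built of an alpha and a beta chain that bind matrix proteins or counter-receptors on other cells. Tetraspanins are small membrane proteins that gather integrins and other receptors into domains of the membrane. In bone marrow, integrins that contain the Itga4 chain bind Vcam1 on stromal and endothelial cells, Cd44 binds hyaluronan, and selectins slow passing leukocytes through ligands such as Selplg, and together these hold stem and progenitor cells in place and govern their homing and release.

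The transcript starts of 4 members on chromosome 2 lay in regions that fell in leukemic cells, and promoters of these genes are shown. Another 12 member regions that fell on chromosome 2 did not span a listed start. Each sequence holds 250 bases before and 50 after a RefSeq transcript start on GRCm38.p6, 5′ to 3′ on the gene's strand. The start regions of Itgb1, which did not pass the test, and of Itgam, which had a low value that did not pass it, are set beside them. Capitals mark matches, on either strand, to 7 motifs. The letters searched were GAGGAAGT for PU.1 and CCGGAAGT for ETS factors in general. RUNX factors were searched as TGTGGTT, while the letters for GATA factors were AGATAA. The AP-1 motif, with any base at its centre, was TGANTCA, and that of the GC box was GGGCGG. The CCAAT box was searched by the letters in its name.
Cd44, chr2:102901616-102901915, minus strand: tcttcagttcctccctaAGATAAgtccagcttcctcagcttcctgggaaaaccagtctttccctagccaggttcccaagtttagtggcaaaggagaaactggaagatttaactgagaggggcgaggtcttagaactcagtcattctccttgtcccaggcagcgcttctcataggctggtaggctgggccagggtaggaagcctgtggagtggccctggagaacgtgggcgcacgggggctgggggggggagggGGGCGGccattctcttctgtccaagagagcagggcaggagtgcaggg
Cd82, chr2:93461802-93462101, minus strand: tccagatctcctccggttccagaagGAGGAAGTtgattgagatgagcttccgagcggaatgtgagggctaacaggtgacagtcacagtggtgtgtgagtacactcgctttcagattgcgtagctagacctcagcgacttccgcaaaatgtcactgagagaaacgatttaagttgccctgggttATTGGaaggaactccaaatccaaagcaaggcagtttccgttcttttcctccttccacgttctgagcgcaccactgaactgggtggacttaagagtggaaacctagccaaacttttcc
Itga4, chr2:79255176-79255475, plus strand: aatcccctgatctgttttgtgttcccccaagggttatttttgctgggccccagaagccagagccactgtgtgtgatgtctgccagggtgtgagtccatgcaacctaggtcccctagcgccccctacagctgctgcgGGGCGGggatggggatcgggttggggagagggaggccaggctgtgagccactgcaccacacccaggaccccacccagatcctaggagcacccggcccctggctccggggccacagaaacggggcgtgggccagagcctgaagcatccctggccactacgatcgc
Itgav, chr2:83724147-83724446, plus strand: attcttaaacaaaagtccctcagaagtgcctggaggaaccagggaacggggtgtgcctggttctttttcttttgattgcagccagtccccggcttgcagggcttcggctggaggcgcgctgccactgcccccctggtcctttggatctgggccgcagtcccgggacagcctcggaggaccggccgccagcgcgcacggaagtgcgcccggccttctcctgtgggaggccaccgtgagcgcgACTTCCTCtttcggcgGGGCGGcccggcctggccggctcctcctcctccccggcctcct
Itgb1, chr8:128685404-128685703, plus strand: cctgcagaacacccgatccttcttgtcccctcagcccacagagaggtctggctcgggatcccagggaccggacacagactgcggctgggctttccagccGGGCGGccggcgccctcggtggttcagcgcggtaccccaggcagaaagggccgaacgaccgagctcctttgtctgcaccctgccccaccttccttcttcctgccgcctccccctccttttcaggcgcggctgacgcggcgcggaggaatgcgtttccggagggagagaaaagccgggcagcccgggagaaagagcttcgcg
Itgam, chr7:128062390-128062689, plus strand: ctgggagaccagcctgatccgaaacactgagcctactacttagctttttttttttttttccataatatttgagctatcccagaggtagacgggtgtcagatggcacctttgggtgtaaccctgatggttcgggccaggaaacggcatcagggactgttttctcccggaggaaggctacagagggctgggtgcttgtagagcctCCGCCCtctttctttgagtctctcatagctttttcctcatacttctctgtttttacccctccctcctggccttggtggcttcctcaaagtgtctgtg
The Cd82 promoter shown, 1 of 4 listed for the gene, held the PU.1 letters 225 bases before the start and a CCAAT box. None of the other 3 Cd82 promoters held the PU.1 letters, and 2 of them overlapped the same start region. Itgav held the PU.1 letters on the opposite strand, from 9 bases before the start. Cd44 held a GATA match and a GC box, and Itga4, Itgb1 and Itgam held a GC box alone. RefSeq promoters were found for 24 of the 34 members, 30 promoters in all. The PU.1 letters stood in 6 of the 30, those of Itgb7, Itgb6, Itgav, Cd82, Cd53 and Cd37, against 3.20% of all 32851 mouse promoters. The GC box stood in 17 of 30, against 35.7% of all, and the CCAAT box in 5, against 37.4% of all. RUNX letters stood in 1 of 30 (5.27% of all), GATA in 2 (11.2%), AP-1 in 3 (7.81%) and ETS in none (3.89%). A letter match is a description of the window and not a binding site.

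Changed regions of the adhesion genes were mostly losses, and 16 of the 17 losses lay on chromosome 2. In what follows, rose, fell and changed refer to an adjusted p under 0.001, the threshold of the authors' deposited lists, and other values are given without such a word. For genes with no listed start inside a region, 1 end means either boundary of the gene's extent, which may be its start. Of the 400 regions, 17 fell and 4 rose in leukemic cells, that is 4.25% and 1.00%, where 1.22% of all regions fell and 1.24% rose. On chromosome 2, 16 of 119 member regions fell (13.4%) and 1 rose, where 3.42% of all regions of that chromosome fell and 0.58% rose. On other chromosomes, 1 of 281 member regions fell and 3 rose, where 1.03% of all their regions fell and 1.3% rose. The changed regions belonged to 9 genes, Cd44, Cd82, Itga4, Itgav, Itga8, Itga9, Itga1, Icam2 and Itgb7, and 24 genes with regions had none. At an adjusted p under 0.05, 71 of the 400 member regions were lower and 23 higher, beside 9.21% and 7.98% of all regions. Of these, 41 of 119 chromosome 2 regions were lower and 3 higher, beside 19.6% and 4.76% of that chromosome. Another 30 of 281 regions elsewhere were lower and 20 higher, beside 8.33% and 8.26% of the other chromosomes. The 33 genes had between 2 and 48 regions each, with a median of 9.

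The median log2 fold change, leukemic over non-leukemic, was -1.01 over the 119 member regions on chromosome 2 and -0.11 over the 281 elsewhere, a difference of -0.89. Regions that belonged to no member had a median of -0.56 on chromosome 2 and 0.06 elsewhere. Of the chromosome 2 members, 103 of 119 regions lay below 0 (86.6%), where 69.4% of all regions of that chromosome did. Much of chromosome 2 was low in this comparison. In bins of 5 Mb with at least 50 regions, the 19 with the lowest medians all lay between 55 and 155 Mb, with medians of -1.12 to -0.87, and the other 17 such bins had medians of -0.69 to 0.43. Inside that stretch, the bin from 95 to 100 Mb held 28 regions, with a median of -0.58. The members on chromosome 2 other than Itga8, which lies near 12 Mb, all stood inside that stretch. Each gene was therefore set beside its surroundings, the other regions within 5 Mb of its midpoint. On that scale the median difference from the surroundings was -0.24 for member regions on chromosome 2 and -0.29 for those elsewhere.

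**Figure D1:**
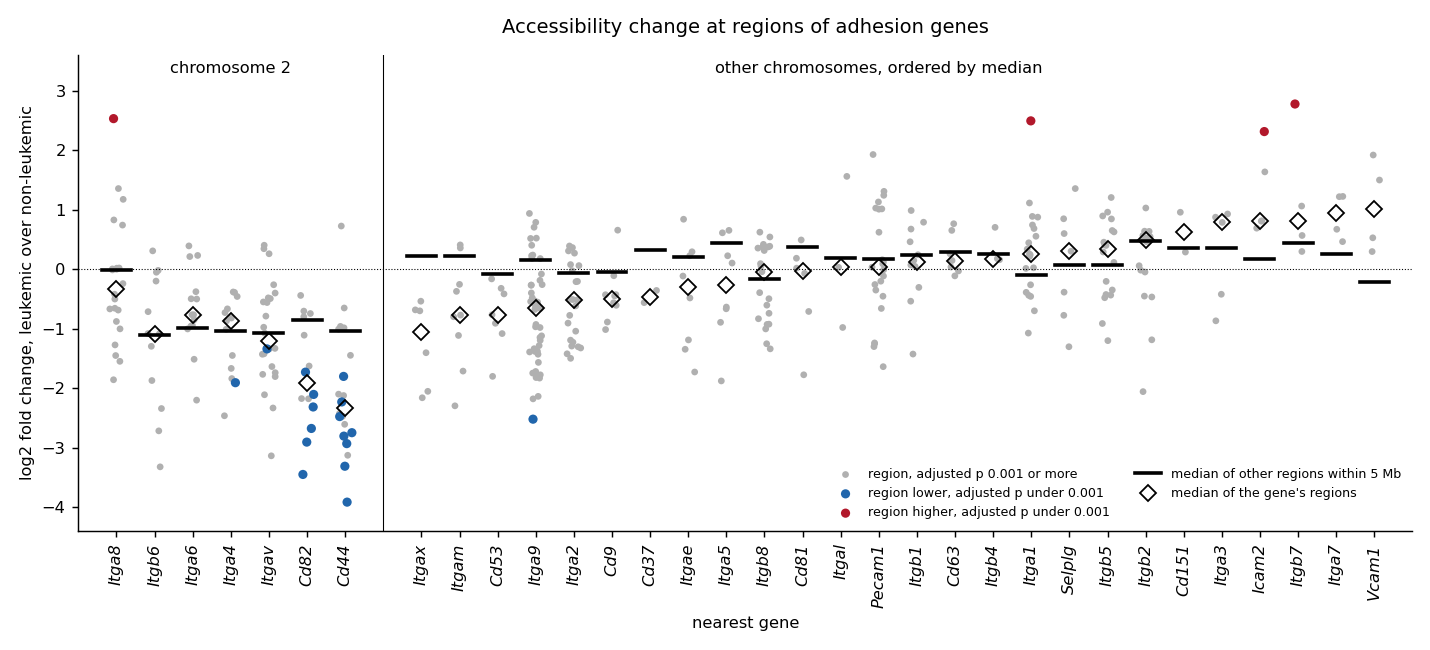
Log2 fold change, leukemic over non-leukemic, of the 400 member regions in the authors' deposited table by nearest gene, with 7 genes of chromosome 2 at left, in order along it, and 26 genes of other chromosomes at right. Points are regions, blue where they fell and red where they rose at an adjusted p under 0.001. Diamonds are the median of each gene and bars the median of its surroundings, and Cd44 and Cd82 stand farthest below their bars on chromosome 2.

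Cd44, on chromosome 2 from 102811141 to 102901669, encodes the hyaluronan receptor, also a marker of activated and leukemic cells. Of its 20 regions, 8 fell, 15 were lower at an adjusted p under 0.05 and 19 lay below 0, with a median log2 fold change of -2.33 and a range of -3.92 to 0.72. The median of its surroundings was -1.04, with quartiles of -1.67 and -0.42, and 5.36% of regions there fell. Of the Cd44 regions, 14 of 20 lay below the lower quartile. Of 34 neighbouring genes with at least 5 regions, 1 had a lower median. Among all 4081 genes with at least 10 regions, 2 had a median lower than that of Cd44. In the authors' deposited table the region over its transcript start, chr2:102899090-102901765, had a log2 fold change of -2.75, 0.149 times the non-leukemic level, with an adjusted p of 1.85e-05 and a log2 abundance of 2.55. This region covered 150 of the 300 promoter bases printed above.

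Falls were spread along Cd44 and reached beyond its start. Within the gene, the authors' deposited table gave -1.80 at chr2:102894825-102895286, 6.61 kb downstream of the start (adjusted p 0.000826), and -3.92 at chr2:102886361-102887738, 14.6 kb downstream (adjusted p 0.00014), the strongest fall of any member region. Farther in, the authors' deposited table gave -3.31 at chr2:102877538-102877851 (adjusted p 5.62e-05), -2.48 at chr2:102876211-102876447 (adjusted p 0.0006) and -2.23 at chr2:102867396-102868084 (adjusted p 0.000393). Near the far end of the gene, 86.2 kb downstream, chr2:102814997-102816026 stood at -2.93 in the authors' deposited table, with an adjusted p of 0.000124. Upstream, 12.9 kb before the start, chr2:102914068-102915040 stood at -2.81 in the authors' deposited table, with an adjusted p of 0.000684. So the regions that fell comprised 1 at the start, 6 farther inside the gene and 1 upstream. By the authors' deposited table, chr2:102812676-102813311 narrowly missed the threshold, at -3.13 with an adjusted p of 0.00102. Not all of the gene was low: 38.9 kb downstream, chr2:102862650-102862842 stood at 0.72 in the authors' deposited table (adjusted p 0.243), and its neighbour chr2:102863355-102865167 at -0.99 (adjusted p 0.0892).

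Cd82, a tetraspanin that associates with integrins and is known for holding stem cells in quiescence, lies on chromosome 2 from 93419102 to 93462950. All 14 of its regions lay below 0, with a median of -1.92 and a range of -3.45 to -0.44, and 6 fell. The surroundings had a median of -0.85 with quartiles of -1.45 and -0.34, and 5.71% of regions there fell. Of the Cd82 regions, 9 of 14 lay below the lower quartile. Among 34 neighbouring genes with at least 5 regions, 4 had a lower median, and among the 4081 genes 7 did. According to the authors' deposited table, the region over 3 of its transcript starts, chr2:93460853-93463028, stood at -1.73, 0.301 times the non-leukemic level, with an adjusted p of 0.000358 and an abundance of 4.05. A pair of regions just inside fell more: the authors' deposited table gave -2.91 at chr2:93458756-93459893 (adjusted p 6.7e-05) and -3.45 at chr2:93457808-93458051 (adjusted p 4.86e-05), 3.63 and 5.02 kb downstream of the first start. The other falls in the authors' deposited table were -2.11 at chr2:93449682-93450052 (adjusted p 0.000977), -2.68 at chr2:93427122-93428524 (adjusted p 9.21e-05) and -2.32 at chr2:93424293-93425002 (adjusted p 0.000588). Between these stood regions that did not pass, such as chr2:93456160-93456457 at -0.44 in the authors' deposited table (adjusted p 0.48).

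Cd44 and Cd82 together held 14 of the 17 falls in 34 of the 400 regions. With both genes left out, an alternative chosen after seeing the data, 3 member regions fell, the chromosome 2 median was -0.77 and its median difference from the surroundings was 0.022. The remaining 4 genes of the low stretch were Itga4, Itga6, Itgav and Itgb6. Of their 63 regions, 2 fell (3.17%) and 16 were lower at an adjusted p under 0.05 (25.4%), with a median of -0.95. In their surroundings 5.51%, 5.85%, 6.49% and 4.29% of regions fell, in the same order of genes.

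**Figure D2:**
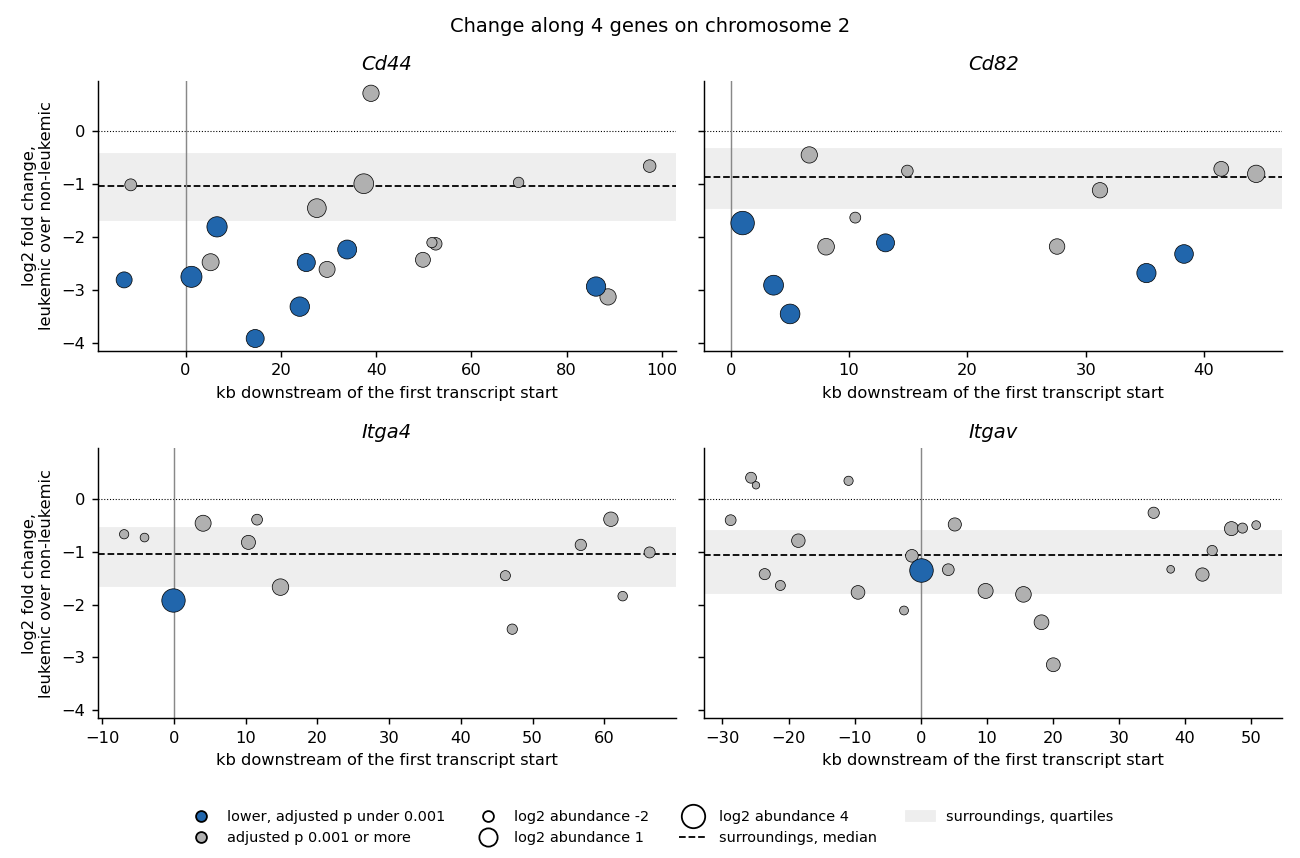
Log2 fold change of the regions of Cd44, Cd82, Itga4 and Itgav against distance in kb downstream of the first listed transcript start, in the authors' deposited table. Points grow with log2 abundance, blue points fell at an adjusted p under 0.001, and the dashed line and grey band are the median and quartiles of the surroundings. Falls are spread along Cd44 (8 regions) and Cd82 (6 regions), and in Itga4 and Itgav the region at the start alone fell.

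Itga4 encodes the alpha chain that pairs with Itgb1 or Itgb7 and binds Vcam1 and fibronectin, and it anchors progenitors in the marrow. Per the authors' deposited table, its start region, chr2:79253271-79257254, was 3983 bp wide with an abundance of 3.99 and fell to a log2 fold change of -1.91, 0.266 times the non-leukemic level (adjusted p 3.16e-05). The other 12 regions of Itga4 had a median of -0.85, and none of them passed. With all 13 regions below 0, the gene had a median of -0.87, beside -1.04 in its surroundings. Itgav, which pairs with several beta chains and binds RGD proteins such as vitronectin, had a similar layout. In the authors' deposited table its start region, chr2:83723796-83725244, had the log2 fold change -1.34, 0.394 times the non-leukemic level (adjusted p 0.000159, abundance 4.08). Its 24 regions had a median of -1.21, beside -1.07 in the surroundings. The lowest region of Itgav in the authors' deposited table stood at -3.14 and did not pass.

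Itga6, Itgb6 and Itga8 are the other members on chromosome 2. Itga6, the laminin receptor chain used to mark stem cells, had 14 regions, none changed, with a median of -0.77 beside -0.99 around it. By the authors' deposited table, the region over 1 end of Itga6, chr2:71786167-71788104, stood at -0.96 (adjusted p 0.0122, abundance 3.31), and its lowest adjusted p, 0.00948, belonged to chr2:71863640-71863809 at -2.20, 5.3 kb outside the gene. Itgb6, an epithelial beta chain that pairs with Itgav, had 12 regions, none changed, with a median of -1.09 beside -1.11 around it. According to the authors' deposited table, the lowest adjusted p of Itgb6 was 0.00135, at chr2:60622055-60623366 with a log2 fold change of -3.32 and an abundance of -0.78. Neither of the 2 listed starts of Itgb6 lay in a region. The medians of Itga6 and Itgb6 differed from those of their surroundings by 0.22 and 0.02.

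Itga8, which pairs with Itgb1 and is known from mesenchymal cells, lies outside the low stretch. Its 22 regions had a median of -0.33, beside -0.01 around it. Per the authors' deposited table, its start region, chr2:12301404-12302116, stood at -0.01 (adjusted p 1). A single region of Itga8 rose in the authors' deposited table, chr2:12114270-12114528 at 2.53, 188 kb downstream of the start, with an adjusted p of 0.000606 and a low abundance of -1.22. The lowest region of Itga8, chr2:12280673-12281207, stood at -1.86 in the authors' deposited table with an adjusted p of 0.00505.

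Among integrin alpha chains on other chromosomes, Itga9 was the largest member, with 48 regions. Itga9 pairs with Itgb1 and shares ligands with Itga4, among them Vcam1 and osteopontin. Of its regions 38 lay below 0 (79.2%) and 13 were lower at an adjusted p under 0.05 (27.1%), with none higher. Of all regions on other chromosomes, 47.7% lay below 0 and 8.33% were lower at that limit. The median of Itga9 was -0.66 beside 0.15 in the surroundings, and 31 of its regions lay below the lower quartile around it. Of 79 neighbouring genes with at least 5 regions, 6 had a lower median. The region that fell in the authors' deposited table was chr9:118726380-118726915 at -2.52, with an adjusted p of 0.000455 and an abundance of 0.69. The region over 1 end of Itga9, chr9:118606305-118606942, stood at 0.24 in the authors' deposited table (adjusted p 1). The gene thus stood below surroundings whose own median lay above 0.

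The chains that bind collagen and laminin, Itga1, Itga2, Itga3 and Itga7, had 52 regions elsewhere, of which 1 rose and none fell. Itga1, a collagen receptor chain, had 20 regions with a median of 0.24. The authors' deposited table gave it a rise of 2.49 at chr13:115096999-115097240, 4.84 kb downstream of the start, with an adjusted p of 0.000201 and an abundance of -0.93. Its start region, chr13:115101386-115103062, stood at 0.87 in the authors' deposited table (adjusted p 0.0463), and the region over its far end at 0.21 (adjusted p 0.857). Itga2, the neighbouring collagen receptor chain of platelets, had a median of -0.52 over 23 regions, beside -0.06 around it, with its lowest adjusted p, 0.0189, at chr13:114837025-114837448 (-1.50) and -0.91 at its start in the authors' deposited table. These adjacent genes therefore stood on opposite sides of 0. Itga3, a laminin receptor chain, had a median of 0.78 over 5 regions, and in the authors' deposited table its start stood at 0.87 (adjusted p 0.0528) and its lowest adjusted p was 0.0521, at chr11:95047002-95047276 (0.93). Itga7, the laminin receptor chain of muscle, had 4 regions, all above 0, with a median of 0.94 and a lowest adjusted p of 0.0156 at chr10:128945765-128945965 (1.22) in the authors' deposited table. Itga5, the fibronectin receptor chain, had 8 regions with a median of -0.27. By the authors' deposited table, its start stood at 0.61 (adjusted p 0.12), and a region 3.83 kb outside the gene, chr15:103370387-103370857, at -1.88 (adjusted p 0.00211).

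The leukocyte alpha chains Itgal, Itgam, Itgax and Itgae, of which the first 3 pair with Itgb2 and Itgae with Itgb7, had 26 regions with a median of -0.69. None of these passed, and 19 lay below 0 (73.1%), beside 47.7% of all regions of other chromosomes. At an adjusted p under 0.05, 6 were lower (23.1%) and 1 was higher (3.85%), beside 8.33% and 8.26% of those chromosomes. Itgam, the complement receptor chain of monocytes and neutrophils, had a median of -0.77 over 9 regions, beside 0.22 around it. According to the authors' deposited table, the start region of Itgam, chr7:128062460-128063709, stood at -1.72 (adjusted p 0.023), and chr7:128067957-128068188, 5.43 kb downstream, at -2.30 (adjusted p 0.00167). Itgax, the dendritic cell chain beside it, had 6 regions, all below 0, with a median of -1.05 beside the same 0.22. Per the authors' deposited table, its start region, chr7:128128887-128129653, stood at -2.06 (adjusted p 0.00511) and chr7:128138379-128138774 at -2.16 (adjusted p 0.00251). Of the 55 neighbouring genes with at least 5 regions, 4 had a lower median than Itgam and 3 a lower median than Itgax. Itgal, the chain that binds Icam proteins, had 3 regions with a median of 0.03, and in the authors' deposited table the region over its end stood at -0.98 (adjusted p 0.0619) and chr7:127308912-127309130 at 1.56 (adjusted p 0.0029). Itgae, which binds E-cadherin, had a median of -0.30 over 8 regions, with -1.73 at chr11:73092696-73093360 (adjusted p 0.00907) and 0.84 over its end (adjusted p 0.27) in the authors' deposited table.

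The 6 beta chains on other chromosomes had 74 regions, of which 1 rose and none fell, with a median of 0.21. Itgb7, which pairs with Itga4 in homing to gut and with Itgae, had 4 regions, all above 0, and a median of 0.81 beside 0.44 around it. In the authors' deposited table chr15:102232886-102233100 rose to 2.77, 6.84 times the non-leukemic level, with an adjusted p of 2.67e-05 and an abundance of 0.34. That region lay 1.06 kb before the listed start of Itgb7, whose own region had 0.56 in the authors' deposited table (adjusted p 0.491). Itgb1, the most widely shared beta chain, had a median of 0.11 over 12 regions. By the authors' deposited table, its start, chr8:128685042-128686673, stood at 0.08 (adjusted p 0.835, abundance 4.57), and chr8:128680020-128681191, 5.05 kb outside the gene, at -1.43 (adjusted p 0.0337). Itgb2, the leukocyte beta chain, had 16 regions, 6 below 0, with a median of 0.49 beside 0.48 around it. According to the authors' deposited table, chr10:77540716-77541043 in Itgb2 stood at -2.06, missing the threshold with an adjusted p of 0.00104. The region over 1 end of Itgb2 stood at -0.47 in the authors' deposited table (adjusted p 0.286). Among the epithelial and stromal beta chains, Itgb4 had 3 regions with a median of 0.17. The region over 1 end of Itgb4 had 0.70 in the authors' deposited table (adjusted p 0.103). Itgb5 had 18 regions with a median of 0.34, with 0.96 at its start (adjusted p 0.0729) and 1.20 at chr16:33836422-33837640 (adjusted p 0.0401) in the authors' deposited table. Itgb8, which activates latent TGF-beta, had 21 regions with a median of -0.05, and in the authors' deposited table -0.93 at its start (adjusted p 0.128) and -1.34 at chr12:119156242-119158009 (adjusted p 0.108).

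The tetraspanins on other chromosomes, Cd9, Cd37, Cd53, Cd63, Cd81 and Cd151, had 34 regions, none changed, with a median of -0.34 and 23 below 0. Cd53, a leukocyte tetraspanin, had all 7 regions below 0, with a median of -0.77 beside -0.09 around it. Per the authors' deposited table, the start region of Cd53, chr3:106790020-106790503, stood at -0.91 (adjusted p 0.384) and chr3:106798133-106798362, 8.1 kb outside, at -1.80 (adjusted p 0.0235). Cd9, known from platelets and stem cells, had a median of -0.51 over 10 regions, and in the authors' deposited table -0.43 at its start (adjusted p 0.226) and a lowest adjusted p of 0.139, at chr6:125489939-125490388 (-0.89). The medians of Cd53 and Cd9 lay below surroundings near 0, those of Cd9 at -0.05, and none of the regions of these 2 genes passed. Cd82 lies in the low stretch of chromosome 2, where its surroundings stood at -0.85. Cd37, a B cell tetraspanin, had 2 regions, at -0.36 over its start (adjusted p 0.276) and -0.56 over its other end (adjusted p 0.642) in the authors' deposited table. Cd63, of lysosomes and granules, had 7 regions with a median of 0.14, with 0.26 over 1 end (adjusted p 0.859) and 0.76 at chr10:128900191-128901675 (adjusted p 0.232) in the authors' deposited table. Cd81, a widely expressed tetraspanin, had a median of -0.03 over 6 regions, with 0.49 at its start (adjusted p 0.389) and -1.78 at chr7:143059546-143059777 (adjusted p 0.00395) in the authors' deposited table. Cd151, a partner of laminin-binding integrins, had 2 regions, each over a start, at 0.29 (adjusted p 0.279) and 0.95 (adjusted p 0.0166) in the authors' deposited table.

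Among the counter-receptors, all regions of Icam2 and Vcam1 stood above 0, and those of Pecam1 were split. Icam2, Vcam1 and Pecam1 had 32 regions with a median of 0.41, and 10 were higher (31.2%) and 2 lower at an adjusted p under 0.05, beside 8.26% and 8.33% of the other chromosomes. Icam2, which binds Itgal with Itgb2, had 5 regions, all above 0, with a median of 0.81 beside 0.17 around it. In the authors' deposited table chr11:106381122-106381307 in Icam2 rose to 2.31 (adjusted p 0.000628, abundance -1.57). The region over 1 end of Icam2, chr11:106386481-106388479, stood at 1.63 in the authors' deposited table (adjusted p 0.00233). Vcam1, the ligand of Itga4, had 4 regions, all above 0 and none passing, with a median of 1.01 beside -0.21 around it, and all 16 neighbouring genes with at least 5 regions had a lower median. By the authors' deposited table, the region over 1 end of Vcam1, chr3:116129235-116131235, stood at 1.92 with an adjusted p of 0.00215. Pecam1, of endothelium and platelets, had 23 regions, 12 above and 11 below 0, with a median of 0.03 beside 0.17 around it. Pecam1 had 6 higher and 2 lower regions at an adjusted p under 0.05. According to the authors' deposited table, it held chr11:106679833-106680096 at 1.92 (adjusted p 0.0041), chr11:106660527-106661108 at -1.64 (adjusted p 0.00725) and -0.35 over 1 end (adjusted p 0.562). Selplg, which binds the selectins, had 7 regions with a median of 0.30, and in the authors' deposited table -1.31 over 1 end (adjusted p 0.0115) and 1.35 at chr5:113825412-113825867 (adjusted p 0.00922).

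Of 5 member regions over a listed start on chromosome 2, 4 fell, with a median of -1.73, and of 16 elsewhere none passed, with a median of 0.18. Over all regions at listed starts the median was -0.53 on chromosome 2 and 0.23 elsewhere, and 8.83% of them fell on chromosome 2 and 1.38% elsewhere. Start regions had a higher abundance than others, with a median of 2.25 beside -1.34 on chromosome 2. On chromosome 2 the start stood lower than the median of the gene's other regions in 3 of 5 genes, Cd44, Itga4 and Itgav, and not in Cd82 and Itga8. Elsewhere the start was lower in 7 of 14 genes, with Itgam and Itgax at the low end and Itgb5 at the high end.

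**Figure D3:**
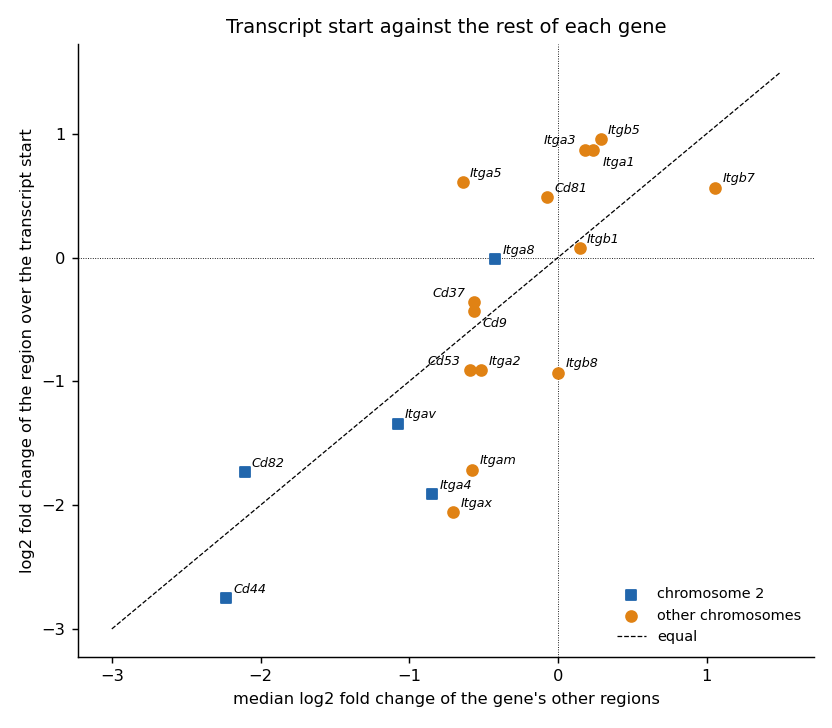
Log2 fold change of the region over the transcript start against the median log2 fold change of the same gene's other regions, for 5 genes on chromosome 2 (squares) and 14 elsewhere (circles) in the authors' deposited table. The dashed line marks equal values. Cd44 (-2.75) stands lowest, Itgax (-2.06) and Itga4 (-1.91) lie well below the line, and Itga5 (0.61) lies well above it.

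Most member regions that fell had a high deposited log2 abundance, the authors' measure of read level. Most of the 4 that rose had a low one. Over all regions, 1853 of 1961 falls and 1133 of 2002 rises lay at an abundance above 0. On chromosome 2, 15 of 35 member regions with a log2 abundance above 0 fell (42.9%), where 11.5% of all such regions on that chromosome did. At an abundance of 0 or below 1 of 84 member regions fell (1.19%), beside 0.46% of all such regions on that chromosome. Over all regions with an abundance above 0, 4.37% fell and 2.67% rose, and at 0 or below 0.09% fell and 0.73% rose. Of the 4 rises, those in Itga8, Itga1 and Icam2 lay at abundances of -1.57 to -0.93 and were 185 to 258 bp wide in the authors' deposited table, and that of Itgb7 had an abundance of 0.34.

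**Figure D4:**
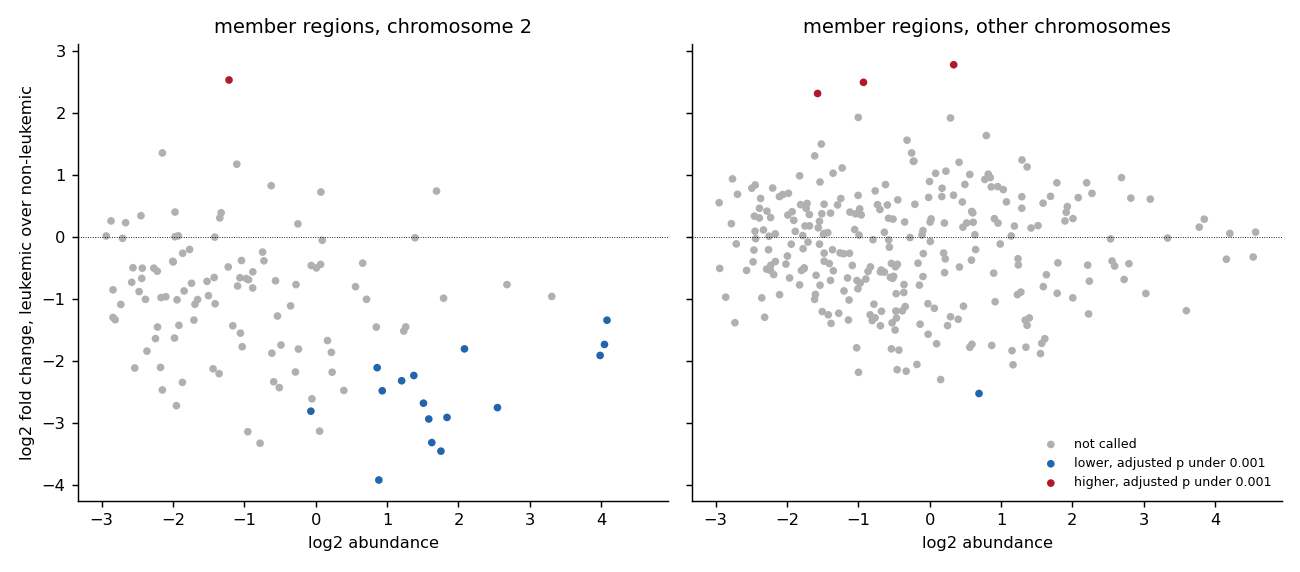
Log2 fold change, leukemic over non-leukemic, against log2 abundance for the 119 member regions on chromosome 2 (left) and the 281 elsewhere (right), in the authors' deposited table. Blue points fell and red points rose at an adjusted p under 0.001. On chromosome 2, 15 of the 16 falls have an abundance above 0, and elsewhere 1 region fell, at an abundance of 0.69.

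Other genes of the pathway were counted by list, and 33 of their regions changed. Over all regions 1.22% fell and 1.24% rose. Falls made up 6.82% of regions of the other integrins, 2.29% of the selectin list and 1.09% of the other tetraspanins. They made up 2.14% of the activation and adaptor list and 1.80% of the ligand list. Rises made up 1.64% of the other tetraspanins, 1.07% of the adaptor list, 2.25% of the ligand list and 1.64% of the hyaluronan list. Among 6 other integrin genes, 3 of 44 regions fell and none rose, in the authors' deposited table at -2.59 in Itga2b and -2.40 in Itgb3, the chains of the platelet fibrinogen receptor, and at -2.84 in Itgb2l. Among genes of selectins and of selectin ligand synthesis, 3 of 131 regions fell and none rose, in the authors' deposited table at -2.50 and -2.40 in Gcnt1 and -3.28 in St3gal6, enzymes that build the sugar of selectin ligands. Other tetraspanins had 3 rises and 2 falls in 183 regions, in the authors' deposited table at 1.31, -2.33 and -2.04 in Tspan14, 1.78 in Tspan15 and 1.73 in Tspan31. Integrin activation and adaptor genes had 4 rises and 8 falls in 373 regions. Among the falls in the authors' deposited table, on chromosome 2, were -3.09 in Rasgrp1, an exchange factor of Ras, and -2.95 and -3.63 in Apbb1ip, an effector of Rap1 that recruits talin to integrins. On other chromosomes the authors' deposited table gave rises of 2.30 in Bcar1, 1.62 in Ptk2, 2.61 in Tln2 and 2.35 in Syk, and falls of -2.22 in Actn1 and -2.51 in Syk. Matrix and cell ligands had 5 rises and 4 falls in 222 regions. Per the authors' deposited table, the rises were 2.27 and 2.75 in Lama1, 3.01 in Lamc1, 2.47 in Col4a1 and 1.95 in F11r, and the falls -3.20 in Lama3, -3.06 and -2.55 in Tnc and -1.82 in F11r. Of 61 regions of the hyaluronan system and its linkers 1 rose, at 2.50 in Rdx in the authors' deposited table, and none fell. Rdx, radixin, links Cd44 to actin.

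Markers of the sorted cells and of other cell types were counted by the same rule. Kit and Tal1, of progenitors, had regions of high abundance, at most 3.26 and 3.51, and Cd3e, Cd4 and Cd8a, of T cells, had none above -0.48. Other lymphoid markers did have such regions, with at most 2.52 for Cd3d, 2.41 for Pax5 and 3.66 for Klrb1c. Stem and progenitor markers had 10 falls and no rise in 182 regions, monocyte markers 7 rises and 1 fall in 54, and neutrophil markers 4 rises and 1 fall in 39. F13a1 alone held 5 of the monocyte rises, and Csf1r, Adgre1 and Ccr2 had medians of -1.10, -0.85 and -0.55. All 4 neutrophil rises lay in Ctsg, Elane and Mpo, with medians of 1.73, 1.82 and 0.61. The neutrophil fall lay in Ltf, and Ltf and S100a9 had medians of -1.40 and -1.65. The other neutrophil markers, Camp, S100a8, Ly6g and Csf3r, had medians of 0.23, -0.02, -0.27 and -0.32. The median over all 39 neutrophil regions was -0.17. Megakaryocyte markers, which share Itga2b and Itgb3 with the integrins above, had 3 falls in 51 regions (5.88%). Endothelial and stromal markers had 1 fall in 51 (1.96%), and mast cell markers 1 rise in 17 (5.88%). Erythroid, B cell and T or NK cell markers had no change in 28, 76 and 50 regions. Summed levels of these markers per library are not given in the files used here. The part of these shifts in the changes of the adhesion genes was not tested.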

How the data were processed

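The libraries and groups are those described above, taken from the labels. Per the submitters' processing notes, the tools were Bowtie2 2.4.1, SAMtools 1.10.2 and Genrich 0.6, and the build was GRCm38 (mm10). The title of the deposited table names csaw. Its settings, filters on reads, normalization and any correction for the transposase's offset are not stated in these sources. The authors deposited a log2 fold change per region and a column taken here, from its place and its values, as log2 average abundance. The authors also deposited a p-value per region and its adjusted form, which matched the Benjamini-Hochberg method over all 160978 regions to within 2.39e-15. The authors' deposited lists of changed regions matched a limit of 0.001 on it. Libraries have no values of their own here, so depth is unknown, as is the smallest change that could have passed.

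Regions were assigned to 49993 RefSeq gene extents of GRCm38.p6, and 158987 (98.8%) lay within 100 kb of one. Where a centre lay inside several genes, 1 was taken, which touched 24 member regions. That table gives no exons, so exon, intron and UTR are not stated. Coordinates are printed as deposited, and their base (0 or 1) is not stated in these sources. Medians and counts were computed in Python 3.11.15 with pandas 2.3.3 and numpy 2.4.6, and figures drawn with matplotlib 3.10.9. The assignment was tested on simulated regions. No test was run here: every call is the authors', and medians are descriptions, since regions are not replicates. All 34 members are named, with full values for each changed region, the region of lowest adjusted p-value and those at gene ends. Pathway genes are named where a region passed, except for values not reported here. Members and gene lists were chosen with earlier results of these data known. Alternatives to the threshold, distance, competing genes, abundance filter, centring and surroundings were tried.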

Additional observations from a re-analysis of the deposited data

How the results depend on the processing

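No paired analysis was possible because the files used here hold 1 fold change and 1 p-value per region and no values per library. For the same reason no replicate could be left out. At an adjusted p under 0.0001, 1 member region rose, 6 fell, 4 member genes had a changed region and 4 regions of the pathway lists changed. At 0.05 these counts were 23, 71, 27 and 228, and at 0.001 they were 4, 17, 9 and 33. Without Cd44 and Cd82, an alternative chosen after seeing the data, 3 member regions fell. The chromosome 2 median was then -0.77, its difference from the other chromosomes -0.65 and its difference from the surroundings 0.022, against -1.01, -0.89 and -0.24 with all members. Without Itga8, also chosen after seeing the data, the chromosome 2 median was -1.11. In the other 50 combinations of a result and an alternative, counts stayed within 1.5 times the reported ones and medians within 0.1. These used a distance of 20 kb, regions inside genes alone, protein-coding genes alone, no lowest 20% by abundance, centring on all regions, surroundings of 2 Mb, regions inside several genes given to each of them, or the same genes left out (7 genes changed without Cd44 and Cd82, and 3 rises and a difference from the surroundings of -0.19 without Itga8).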

Other observations

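When only protein-coding genes competed for a region, 144 regions more were assigned to the adhesion genes. Of these 8 fell and 1 rose, giving 25 falls and 5 rises in all, where 1.22% of all regions fell and 1.24% rose. The added falls beside Cd44, Itga4 and Itga6, 2, 1 and 2 in number, lay in the low stretch of chromosome 2. In the surroundings of these 3 genes 5.36%, 5.51% and 5.85% of regions fell. Some of the added regions had high abundance and lay in or near genes of the annotation that carry no other name than a Gm number. Beyond the start of Cd44, nearest to Gm34483, the authors' deposited table gave -2.96 at chr2:102943781-102944398 (adjusted p 2.98e-05, abundance 3.86) and -2.78 at chr2:102947905-102948838 (adjusted p 1.75e-05), 42.4 and 46.7 kb from Cd44. Upstream of Itga4, nearest to Gm39866, the authors' deposited table gave -3.88 at chr2:79227424-79228526 (adjusted p 2.53e-05), 27.5 kb away. Beside Itga6, nearest to Gm17250, the authors' deposited table gave -2.78 at chr2:71735259-71737204 (adjusted p 0.000252) and -3.88 at chr2:71744808-71745147 (adjusted p 0.000989).

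Itgam and Itgal, leukocyte chains on chromosome 7 with no changed region of their own, had such neighbours too, and Itgax gained 2 regions, neither changed. Upstream of Itgam, nearest to Gm9299, the authors' deposited table gave -3.67 at chr7:128042255-128042944 (adjusted p 3.71e-05) and -2.80 at chr7:128048700-128049253 (adjusted p 0.000159), 20.04 and 13.7 kb from the gene. Near Itgal, nearest to Gm31897, the authors' deposited table gave -2.14 at chr7:127287601-127288294 (adjusted p 0.000435). The rise lay near Cd9, nearest to Gm32673, at 2.34 on chr6:125454810-125454973 in the authors' deposited table (adjusted p 0.000166, abundance -0.67). Which gene any of these regions acts on was not tested.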
